A study of Mus musculus with 6 samples.

Results

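The cholesterol genes of intestinal ILC3s were examined as a set of 29, read by symbol from the 25075 rows of the deposited count table. They comprise 8 genes of the mevalonate steps, 12 of the steps from squalene to cholesterol, 5 that sense sterols or make up the SREBP system, 2 of uptake control and transport (Mylip, Stard4) and 2 exporters (Abca1, Abcg1). All 29 were found and all 29 passed the filter on low counts, with 18 to 2689 counts per gene and library. The set does not hold every enzyme of the pathway. ILC3s are group 3 innate lymphoid cells, lymphocytes resident in tissue, whose signature products are IL-22 and IL-17. Each sample gave bulk RNA from 2000 cells (2 ng), copied by Smart-seq2, which amplifies whole transcripts from little RNA. The cells were sorted from the small intestine of B6 mice as lineage-negative, CD90.2-positive and KLRG1-negative. Both groups carried floxed Batf alleles: 3 control samples had no PLZF-Cre (Batffl/flPLZF-Cre-) and 3 Batf-deficient samples had it (Batffl/flPLZF-Cre+). PLZF-Cre follows the promoter of the transcription factor PLZF, which innate lymphoid precursors pass through and some T cells also express. The gate named no ILC3-specific protein, and no age, sex or litter was given. Batf encodes an AP-1 family factor, and the comparison asked which transcripts differ with it.

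Cells make cholesterol from acetyl-CoA through mevalonate, isoprenoid diphosphates, squalene and lanosterol. When sterols in the endoplasmic reticulum run low, the escort protein SCAP carries the SREBP precursors to the Golgi, where they are cleaved into transcription factors that turn on the synthesis genes; when sterols are plentiful, INSIG proteins hold the complex back. When oxysterols accumulate, the nuclear receptors LXR turn on the exporters ABCA1 and ABCG1 and the ubiquitin ligase MYLIP, which removes lipoprotein receptors. In ILC3s the pathway has a further interest, since sterol intermediates can bind RORγt, the factor that defines these cells, and since oxysterols guide them through the receptor GPR183.

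Promoter sequences of 4 synthesis genes that differed in direction are shown first, to set the letters beside the values that follow. RefSeq windows (GRCm38.p6, 250 bases before to 50 after an annotated start) existed for 24 of the 29 genes, 32 windows in all. Capitals mark matches on either strand to the motifs searched, which are spelled out after the sequences. The sequences are written on the strand of the gene. Hmgcs1 (chr13:119690101-119690400, plus strand) and Hsd17b7 (chr1:169969156-169969455, minus strand) had lower levels in the Cre-positive libraries. Idi1 (chr13:8885356-8885655, plus strand) and Msmo1 (chr8:64733529-64733828, minus strand) had higher ones with the main scaling and lower ones relative to lymphocyte genes, as described below.
Hmgcs1: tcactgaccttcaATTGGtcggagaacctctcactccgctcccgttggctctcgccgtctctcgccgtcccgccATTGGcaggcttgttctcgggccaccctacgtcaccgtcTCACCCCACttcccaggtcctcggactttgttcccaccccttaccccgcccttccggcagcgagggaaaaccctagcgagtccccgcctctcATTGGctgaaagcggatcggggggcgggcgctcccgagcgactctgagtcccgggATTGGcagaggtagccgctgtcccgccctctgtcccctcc
Hsd17b7: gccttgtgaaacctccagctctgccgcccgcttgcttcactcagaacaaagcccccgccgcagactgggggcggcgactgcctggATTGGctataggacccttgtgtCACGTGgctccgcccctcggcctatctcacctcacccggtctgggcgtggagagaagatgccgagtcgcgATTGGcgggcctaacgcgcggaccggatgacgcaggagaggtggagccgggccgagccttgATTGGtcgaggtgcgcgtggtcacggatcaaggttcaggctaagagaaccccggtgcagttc
Idi1: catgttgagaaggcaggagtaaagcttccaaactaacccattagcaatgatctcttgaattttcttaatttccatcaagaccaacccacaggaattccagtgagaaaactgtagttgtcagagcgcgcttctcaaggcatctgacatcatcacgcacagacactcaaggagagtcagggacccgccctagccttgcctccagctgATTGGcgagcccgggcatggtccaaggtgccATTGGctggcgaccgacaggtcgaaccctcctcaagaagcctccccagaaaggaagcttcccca
Msmo1: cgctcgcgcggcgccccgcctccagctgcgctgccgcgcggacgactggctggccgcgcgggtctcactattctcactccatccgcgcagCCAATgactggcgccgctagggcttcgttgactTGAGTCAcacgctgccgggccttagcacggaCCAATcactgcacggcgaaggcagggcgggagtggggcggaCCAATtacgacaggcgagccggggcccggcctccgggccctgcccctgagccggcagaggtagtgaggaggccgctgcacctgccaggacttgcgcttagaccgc
Hmgcs1 held the only match to the sterol regulatory element TCACNCCAC, a site that SREBPs bind, among the 24 genes, against 1.44% of all 27025 genes with a window. CCAAT boxes, bound by the factor NF-Y, were the most frequent, in 22 of the 32 windows of the set and 37.4% of all 32851 windows. By gene they were in 21 of the 24, against 41.1% of all genes. With the main scaling they were in all 8 matched genes that were higher and in 11 of the 14 that were lower. E-boxes, spelled CACGTG, were in 6 of these 14 lower genes and none of these 8 higher ones, against 8.09% of all genes. This grouping depends on the scaling, since relative to lymphocyte genes all 29 were lower. The AP-1 site TGANTCA was in Dhcr7, Lbr and Msmo1, against 8.97% of all genes. No window of the set held an exact match to the LXR element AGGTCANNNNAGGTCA, which 0.0152% of all windows hold. Copies that differ from these letters were not searched, and Abcg1 had no window, so LXR elements may still be present. These are matches of letters in short windows, not bound sites.

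Library facts touch every value below. Total counts were 9080012 to 17334207 in the control and 8228513 to 13615895 in the Batf-deficient libraries. Values are CPM, a gene's counts relative to its library's size, scaled by TMM (trimmed mean of M-values) factors. Fold changes are Cre-positive over Cre-negative from edgeR's quasi-likelihood test, and p-values were adjusted (Benjamini-Hochberg) across the 15261 genes that were tested, with 0.05 as the threshold for a call. Batf itself (chromosome 12, 85686669 to 85709087) had 15.1, 15.3 and 18.9 CPM without the Cre label and 38.2, 41.2 and 41.2 CPM with it (log2 fold change 1.29 with SE 0.16, edgeR adjusted p = 1.70e-05). With library totals in place of TMM the value was 0.91 (edgeR adjusted p = 0.000249). With lymphocyte scaling, explained below, it was -1.06 (edgeR adjusted p = 9.67e-05). Which exons the floxed alleles remove is not given in the labels, so whole-gene counts check them only in part. The direction with TMM and with library totals went against the labels. The libraries are therefore named by their labels, as labelled Cre-negative (control) and labelled Cre-positive (Batf-deficient). The marker lists also differed. Of 12 pancreatic acinar markers all 12 were lower in the Cre-positive libraries, and their summed share of counts was 9.58% to 9.93% against 0.000425% to 0.000573%, with Try4 and Amy2a1 at 0 there. Of 18 intestinal epithelial markers 17 were lower (1.92% to 2.13% against 0.0917% to 0.108% of counts), as were 7 of 8 B and plasma cell, 8 of 10 stromal and endothelial and 12 of 12 macrophage and dendritic cell markers. All 12 ILC3 markers were higher (0.156% to 0.18% against 0.946% to 1.01%), as were 6 of 8 T cell markers and all 6 inducible heat shock genes (0.0637% to 0.0684% against 3.78% to 4.02%). With lymphocyte scaling 6 ILC3 markers were higher, 3 lower and 3 without a call, 5 T cell markers were higher and 3 lower, and all 6 heat shock genes were higher. Il7r and Thy1 are ILC3 markers and also belong to the gene panel behind that scaling, so their values depend on it in part. In bulk RNA, fewer cells of a type and less RNA per cell cannot be told apart, and the part of these differences in the cholesterol gene results was not tested. Cre-positive replicates 1 and 2 were far more alike than any other pair of a group (chi-square 2.36 per gene against 14.8 to 24.2). The series calls the samples biological replicates, but does not say that each came from a separate mouse, so p-values measure the spread between these samples.

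**Figure D1:**
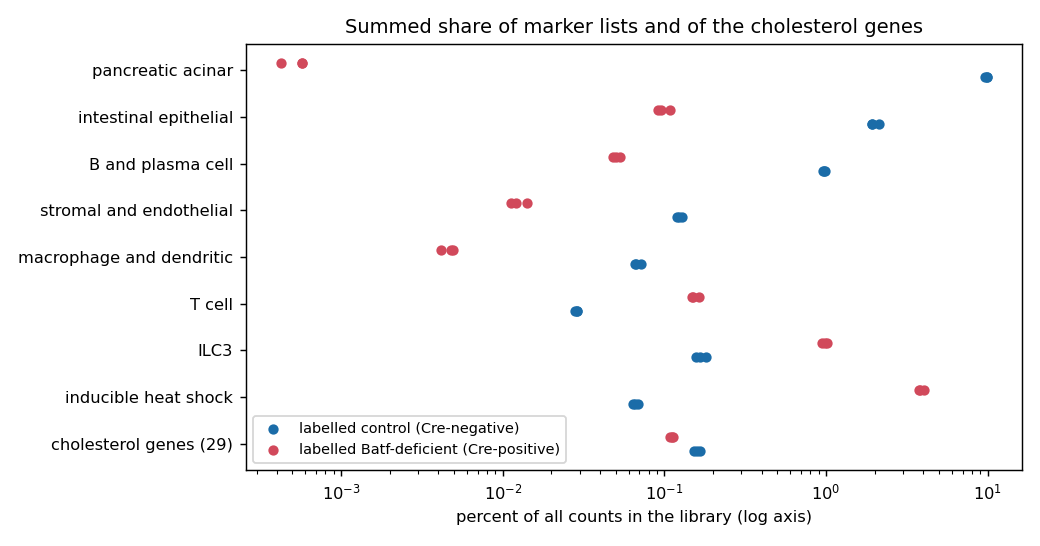
Summed share of all counts per library (log axis, percent) for 8 marker lists and the 29 cholesterol genes, with a point per library. Acinar markers were at 9.58% to 9.93% in the Cre-negative and at most 0.000573% in the Cre-positive libraries, while the cholesterol genes were at 0.153% to 0.166% and 0.109% to 0.113%.

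Because the groups differed this widely, 2 scalings are given. The main scaling is TMM. The other sets the libraries equal on the summed counts of 22 genes that innate lymphoid cells and T cells have in common, such as Ptprc, Lck and Il7r, and so gives each gene relative to lymphocyte transcripts. It shifted the fold changes by a median of -2.34 on the log2 scale, and library totals in place of TMM shifted them by a median of -0.38. The 22 panel genes did not move alike. With TMM their log2 fold changes ran from 0.69 (Sh2d1a, without a call) to 3.63 (Cd247). With lymphocyte scaling 5 of them were higher, 8 lower and 9 without a call. The 29 genes together took 0.166%, 0.159% and 0.153% of counts in the Cre-negative and 0.109%, 0.111% and 0.113% in the Cre-positive libraries. With TMM scaling 25 of the 29 passed the test, against 64.4% of all genes. Of the 29, 16 were lower in the Cre-positive libraries, against 34.1% of all genes, and 9 were higher, against 30.2% of all genes. With library totals 18 were lower (42.4% of all genes) and 5 higher (20.0% of all genes). The median log2 fold change was -0.65, where that of all genes tested was 0.02. The CPM of the groups did not overlap for 25 of the 29 genes, against 71.2% of all genes. With lymphocyte scaling all 29 were lower (median -3.00), against 86.0% of all genes (median -2.33), and none was higher, against 2.13%. Every one of the 9 increases below thus turned into a decrease relative to the summed counts of the panel. With TMM, Idi1, Ggps1, Srebf2, Mylip and Abcg1 still had higher log2 fold changes than the panel gene Sh2d1a (0.69). Cyp51, Lbr, Msmo1 and Srebf1 lay below every gene of the panel.

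**Figure D2:**
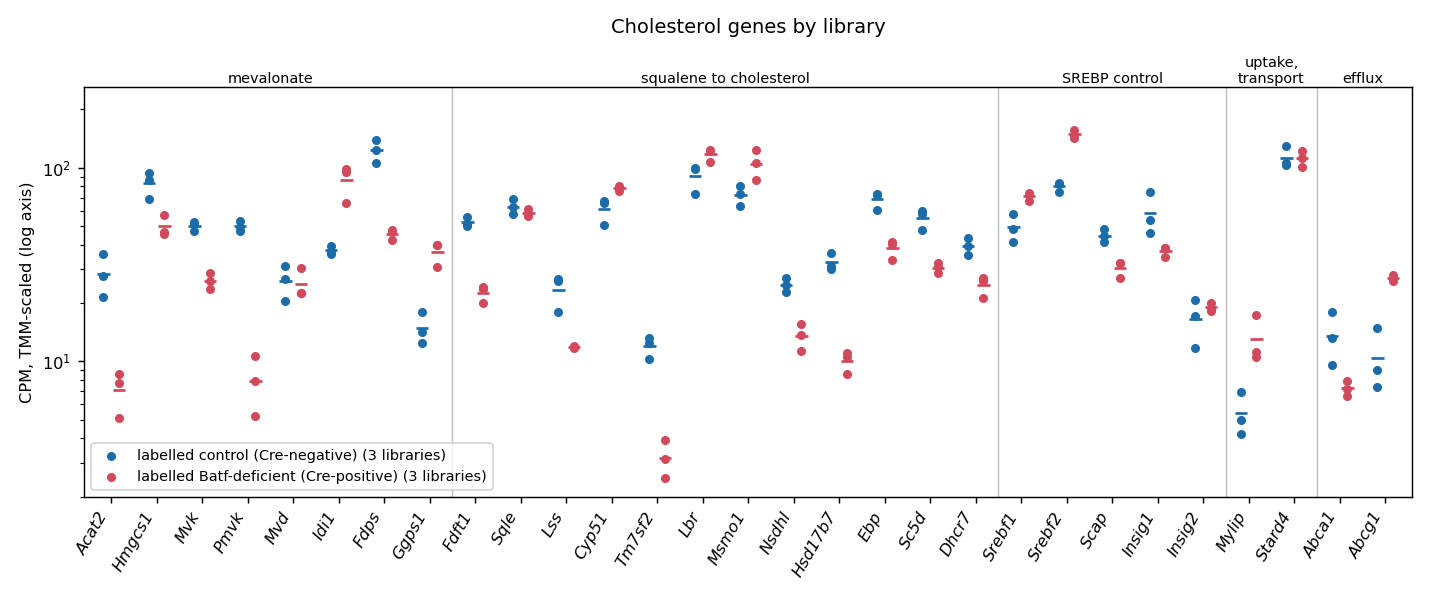
TMM-scaled CPM (log axis) of the 29 genes in each library, ordered by pathway step, with a point per library and a bar at the mean of 3. Pmvk, Acat2, Tm7sf2 and Hsd17b7 lie lowest relative to the Cre-negative libraries, and Idi1, Ggps1, Mylip and Abcg1 lie above it in every Cre-positive library, an order that lymphocyte scaling reverses for these 4 genes.

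Among the mevalonate genes, Acat2, Hmgcs1, Mvk, Pmvk and Fdps were lower, and Idi1 and Ggps1 were higher with TMM scaling and lower with lymphocyte scaling. Of the 8 genes 5 fell (against 34.1% of all genes), 2 rose (against 30.2%) and 1 (Mvd) did not pass the test (median -0.84). Acat2, the cytosolic thiolase that joins acetyl-CoA units, had 27.7, 21.4 and 35.9 CPM in the Cre-negative and 5.11, 8.65 and 7.71 CPM in the Cre-positive libraries. The groups were well apart (log2 fold change -1.98, SE 0.26, edgeR adjusted p = 3.05e-05), and it shares sequence with the neighbouring copy Acat3, so reads may be shared between them. Hmgcs1, the synthase whose promoter is printed above, had 86.9, 94.2 and 68.5 CPM against 46.7, 57.3 and 45.4 CPM. The Cre-negative libraries varied among themselves, yet the lowest of them exceeded the highest Cre-positive library (-0.74, SE 0.15, edgeR adjusted p = 0.000854). The antisense gene model Gm48342 overlaps Hmgcs1 by 6190 bases. Mvk, mevalonate kinase, was at 52.2, 46.9 and 51.1 CPM against 23.6, 25.9 and 28.6 CPM (-0.94, edgeR adjusted p = 8.02e-05).

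Pmvk (chromosome 3, 89454541 to 89469013), which encodes the next kinase of the chain, had the lowest fold change of the whole set. It was at 53.2, 47.2 and 49.4 CPM in the Cre-negative and at 5.25, 7.94 and 10.7 CPM in the Cre-positive libraries, 6.13-fold lower (log2 fold change -2.62, SE 0.22, edgeR adjusted p = 6.73e-07). Mvd, the decarboxylase that follows, had 20.5, 31.2 and 26.6 CPM against 22.5, 22.7 and 30.4 CPM. Its groups overlapped and the test gave no call (-0.05, SE 0.20, edgeR adjusted p = 0.845). Consecutive steps of the chain thus had different fold changes in the same libraries. An opposite-strand gene model, Gm20388, overlaps Mvd by 9822 bases, so part of the Mvd reads may belong to it. Fdps (chromosome 3, 89093588 to 89101959), farnesyl diphosphate synthase, had the highest CPM of the synthesis genes in the Cre-negative libraries, at 124, 106 and 139, against 46.3, 42.5 and 47.8 CPM (-1.43, SE 0.13, edgeR adjusted p = 1.05e-06). A same-strand gene model, Gm43738, spans 7512 bases of it, so the division of reads between them is uncertain.

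Idi1 (chromosome 13, 8885501 to 8892451), the isomerase between Mvd and Fdps, went the other way with TMM scaling. It had 35.7, 39.6 and 36.8 CPM in the Cre-negative and 94.5, 98.4 and 65.6 CPM in the Cre-positive libraries (log2 fold change 1.20, SE 0.16, edgeR adjusted p = 2.96e-05; -1.15 with lymphocyte scaling). The Cre-negative libraries were close together and Cre-positive replicate 3 was the lowest of its group. Ggps1 (chromosome 13, 14050659 to 14063488), which makes the lipid used for protein geranylgeranylation, had 12.5, 14.1 and 18.02 CPM against 39.7, 39.7 and 30.7 CPM (1.29, SE 0.19, edgeR adjusted p = 7.99e-05; -1.06 with lymphocyte scaling). Both promoters held CCAAT letters.

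**Figure D3:**
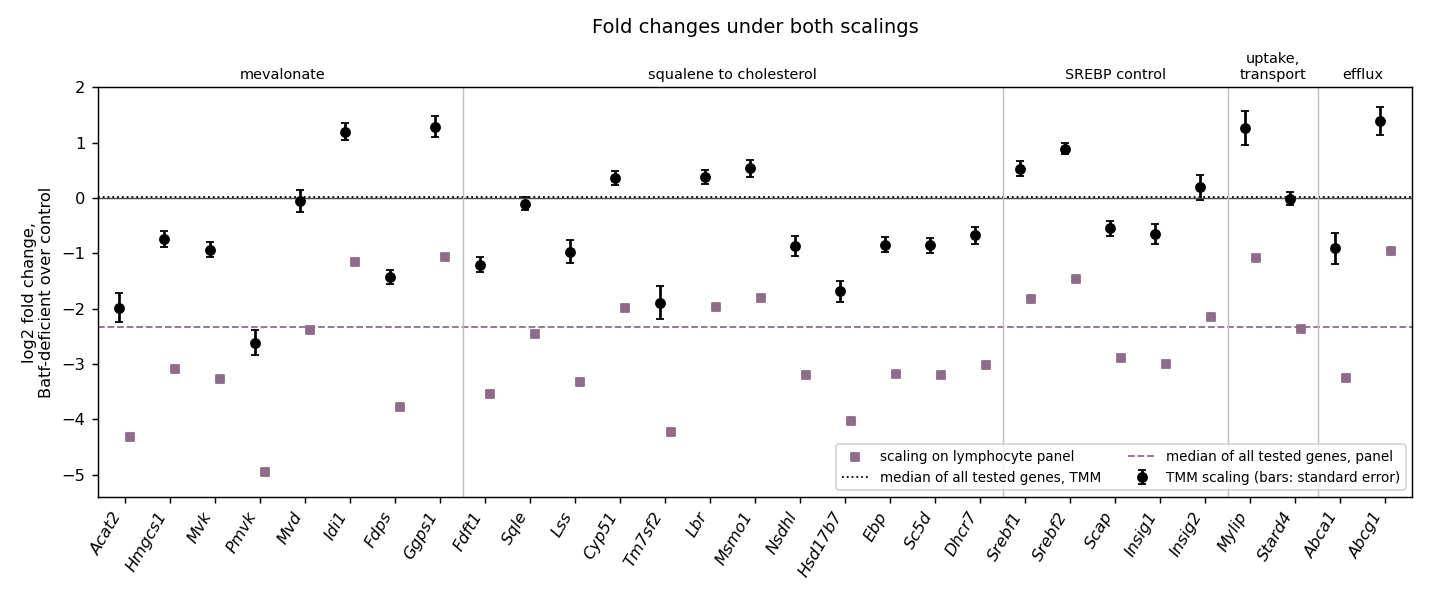
Log2 fold change of each gene, Cre-positive over Cre-negative, with TMM scaling (circles, bars are standard errors) and with scaling on 22 lymphocyte genes (squares); lines mark the medians of all 15261 genes. With TMM the values run from -2.62 for Pmvk to 1.39 for Abcg1, and with lymphocyte scaling all 29 lie below 0.

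Of the 12 genes from squalene to cholesterol 8 fell with TMM scaling (against 34.1% of all genes). A further 3 rose (against 30.2%) and 1 (Sqle) did not pass (median -0.85). Fdft1, squalene synthase, which commits farnesyl units to sterols, had 50.1, 51.1 and 55.8 CPM in the Cre-negative and 23.6, 20.1 and 24.2 CPM in the Cre-positive libraries (log2 fold change -1.21, SE 0.14, edgeR adjusted p = 1.06e-05). It overlaps the opposite-strand gene Ctsb by 774 bases, and whether counting used strand is not given in the sources used here. Sqle, the rate-limiting epoxidase that follows, had 68.9, 57.4 and 62.6 CPM against 61.2, 58.1 and 56.1 CPM, and the groups overlapped (-0.11, SE 0.12, edgeR adjusted p = 0.446). With library totals Sqle was called lower (-0.49, edgeR adjusted p = 0.00444). Lss, which closes the sterol rings, had 25.9, 17.9 and 26.5 CPM against 11.9, 11.8 and 12.04 CPM (-0.97, SE 0.21, edgeR adjusted p = 0.00132). With TMM scaling the first reactions of this branch therefore held both a called decrease and an overlap of groups. The antisense gene model 4930483K19Rik overlaps Lss by 11268 bases.

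The enzymes that trim lanosterol split. Cyp51, the first demethylase, had 50.5, 67.03 and 65.5 CPM in the Cre-negative and 79.6, 80.5 and 75.9 CPM in the Cre-positive libraries (log2 fold change 0.36, SE 0.13, edgeR adjusted p = 0.0271; -1.99 with lymphocyte scaling and -0.012 without a call with library totals). Msmo1, the methyl oxidase, had 73.5, 80.6 and 63.1 CPM against 105, 124 and 86.1 CPM (0.53, SE 0.15, edgeR adjusted p = 0.00706; -1.82 with lymphocyte scaling and 0.15 without a call with library totals). Hsd17b7 (chromosome 1, 169949535 to 169969241), the ketoreductase that completes the same demethylation, had 31.1, 36.2 and 30.1 CPM against 8.57, 11.1 and 10.5 CPM. It was 3.23-fold lower, with all 3 Cre-negative libraries above all 3 others (-1.69, SE 0.18, edgeR adjusted p = 5.92e-06). Nsdhl, the decarboxylating dehydrogenase between Msmo1 and Hsd17b7, was at 24.8 ± 2.05 against 13.5 ± 2.12 CPM (SD, n = 3 each; -0.87, edgeR adjusted p = 0.00157). The calls of Cyp51 and Msmo1 did not hold when some libraries were left out. Without Cre-negative replicate 1 Cyp51 had 0.24 (edgeR adjusted p = 0.0845), and without Cre-positive replicate 1, 2 or 3 it had 0.31, 0.30 and 0.31 (edgeR adjusted p = 0.137, 0.134 and 0.0967); without Cre-positive replicate 2 Msmo1 had 0.35 (edgeR adjusted p = 0.0820).

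Tm7sf2 and Lbr encode reductases of the same sterol double bond, and Lbr is also a receptor for lamin B in the nuclear envelope. Tm7sf2 (chromosome 19, 6062821 to 6068373) had 10.3, 13.2 and 12.4 CPM in the Cre-negative and 2.49, 3.12 and 3.93 CPM in the Cre-positive libraries (log2 fold change -1.89, SE 0.30, edgeR adjusted p = 0.000149). It overlaps its same-strand neighbour Vps51 by 532 bases. Lbr (chromosome 1, 181815335 to 181843046) had 99.1, 98.5 and 73.1 CPM against 123, 107 and 122 CPM (0.38, SE 0.13, edgeR adjusted p = 0.0258; -1.96 with lymphocyte scaling and -0.00068 without a call with library totals). Its call was lost without Cre-negative replicate 3 (0.25, edgeR adjusted p = 0.0664) and without Cre-positive replicate 1, 2 or 3 (0.29, 0.39 and 0.27; edgeR adjusted p = 0.179, 0.0592 and 0.176). Within a library the ratio of Lbr to Tm7sf2, in counts per kb of exon, needs no scaling. It was 8.86, 6.91 and 5.46 in the Cre-negative and 45.9, 31.6 and 28.6 in the Cre-positive libraries, without overlap.

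The last steps fell together with TMM scaling and with lymphocyte scaling. Ebp, the sterol isomerase, had 68.8 ± 7.03 CPM in the Cre-negative and 38.3 ± 4.33 CPM in the Cre-positive libraries (SD, n = 3 each; log2 fold change -0.84, edgeR adjusted p = 0.000175). Sc5d, the desaturase, had 55.0 ± 6.52 against 30.4 ± 1.74 CPM (-0.85, edgeR adjusted p = 0.000183). Dhcr7, the reductase that completes this branch, had 39.5 ± 3.98 against 24.8 ± 3.06 CPM (-0.67, edgeR adjusted p = 0.00238). None of these genes had overlapping groups. Over both parts of the synthesis pathway, 13 of 20 genes fell with TMM scaling (against 34.1% of all genes), 5 rose (against 30.2%) and 2 did not pass. Of those 5, Idi1 and Ggps1 were also higher with library totals (0.82 and 0.91), and lymphocyte scaling reversed all 5.

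**Figure D4:**
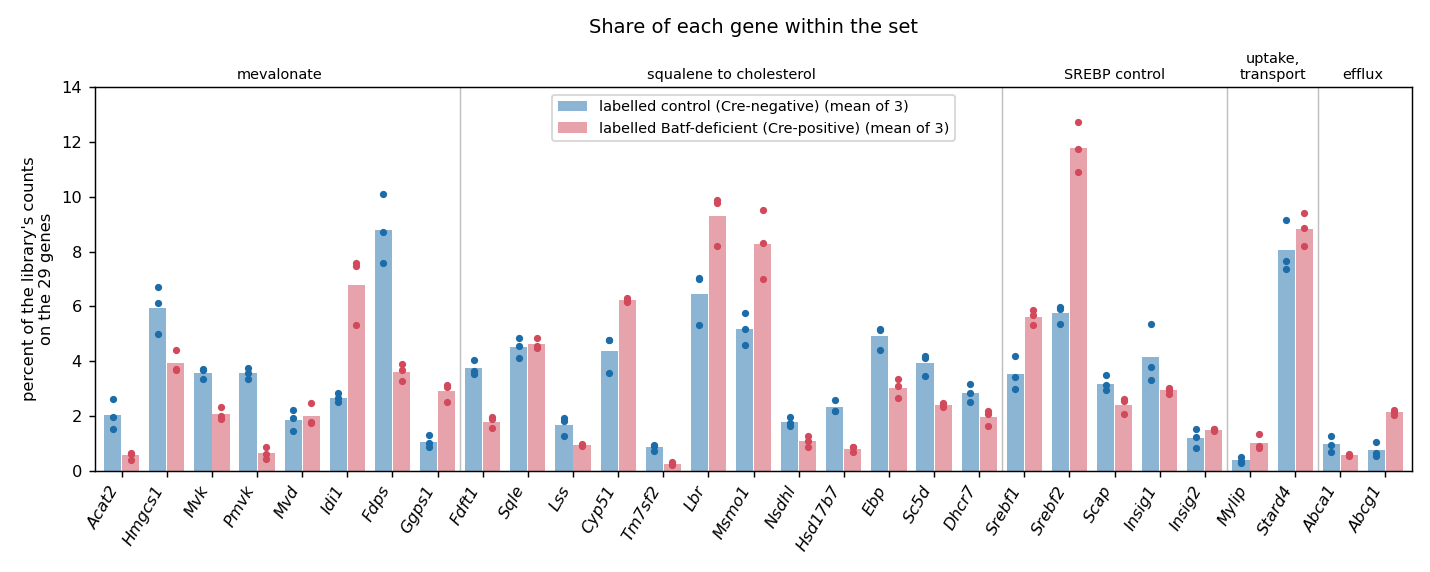
Share of each gene among the counts that its library had on the 29 genes (percent). Bars are at the mean of 3 libraries, with a point per library. These shares do not depend on library scaling but have a fixed sum, so a higher share can go with a lower level. Srebf2 took 5.75% of the set in the Cre-negative and 11.8% in the Cre-positive libraries and Idi1 2.67% and 6.80%, while Fdps took 8.80% and 3.61% and Pmvk 3.57% and 0.632%.

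The sterol sensors also differed in direction. Of these 5 genes 2 fell with TMM scaling (against 34.1% of all genes), 2 rose (against 30.2%) and 1 did not pass (median 0.19). Srebf2 (chromosome 15, 82147181 to 82205379), the SREBP that chiefly drives cholesterol synthesis, had 83.7, 75.2 and 82.6 CPM in the Cre-negative and 148, 142 and 156 CPM in the Cre-positive libraries. The groups were tight and far apart (log2 fold change 0.89, SE 0.10, edgeR adjusted p = 1.01e-05), and lymphocyte scaling turned the value to -1.46. Srebf1 (chromosome 11, 60199089 to 60222581), which chiefly drives fatty acid synthesis, had 48.4, 41.6 and 57.6 CPM against 67.2, 73.8 and 72.1 CPM (0.53, SE 0.14, edgeR adjusted p = 0.00488; -1.82 with lymphocyte scaling and 0.15 without a call with library totals). Scap, the escort protein, had 44.2, 41.3 and 48.0 CPM against 32.1, 26.9 and 32.2 CPM (-0.55, SE 0.14, edgeR adjusted p = 0.00456). Scap was lower with TMM and with lymphocyte scaling, while Srebf2 was higher with TMM and with library totals (0.51, edgeR adjusted p = 0.00159) and lower with lymphocyte scaling.

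Insig1, the retention protein that is itself an SREBP target, had 53.7, 75.2 and 45.8 CPM in the Cre-negative and 38.3, 38.5 and 34.4 CPM in the Cre-positive libraries (log2 fold change -0.65, SE 0.18, edgeR adjusted p = 0.00639). Cre-negative replicate 2 was its highest library, and without it the value was -0.42 (edgeR adjusted p = 0.0231). Insig2, the related protein, had 11.7, 17.1 and 20.8 CPM against 18.1, 19.98 and 18.9 CPM. Its groups overlapped, and no call was made (0.19, SE 0.22, edgeR adjusted p = 0.471). The ratio of Insig1 to Insig2 per kb of exon was 5.17, 4.93 and 2.47 in the Cre-negative libraries and 2.37, 2.17 and 2.05 in the others, so that Cre-negative replicate 3 lay just above the Cre-positive range. The ratio of Srebf1 to Srebf2 was 0.738, 0.705 and 0.890 against 0.577, 0.664 and 0.588.

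Mylip (chromosome 13, 45389742 to 45412022), the ligase that targets lipoprotein receptors, had 4.23, 6.97 and 4.97 CPM in the Cre-negative and 10.5, 17.4 and 11.2 CPM in the Cre-positive libraries. The 3 Cre-negative libraries held 45, 122 and 96 counts, the fewest of the genes that were higher. Its log2 fold change was 1.26 (SE 0.31, edgeR adjusted p = 0.00329) and -1.08 with lymphocyte scaling. Stard4, a soluble carrier of cholesterol between membranes, had 130, 103 and 105 CPM against 112, 122 and 101 CPM. It was among the most abundant genes of the set in both groups, which overlapped (-0.01, SE 0.12, edgeR adjusted p = 0.935). With library totals Stard4 was called lower (-0.40, edgeR adjusted p = 0.0161).

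The exporters moved in opposite directions with TMM scaling. Abca1 (chromosome 4, 53030787 to 53159895), which loads cholesterol onto lipid-poor apolipoproteins, had 13.2, 17.99 and 9.58 CPM in the Cre-negative and 7.19, 7.94 and 6.66 CPM in the Cre-positive libraries (log2 fold change -0.91, SE 0.28, edgeR adjusted p = 0.0136). Abca1 varied among the Cre-negative libraries, and without Cre-negative replicate 2 the value was -0.64 (edgeR adjusted p = 0.0588). Abcg1 (chromosome 17, 31057675 to 31117988), which exports cholesterol to mature lipoprotein particles, had 14.95, 7.37 and 9.06 CPM against 25.8, 28.1 and 27.2 CPM. It had the highest fold change of the set (1.39, SE 0.25, edgeR adjusted p = 0.000416), and -0.96 with lymphocyte scaling. Per kb of exon the ratio of Abca1 to Abcg1 was 0.620, 1.72 and 0.744 in the Cre-negative and 0.196, 0.199 and 0.172 in the Cre-positive libraries. Macrophage and dendritic cell markers fell, as Abca1 did and Abcg1 did not with TMM scaling. They went from 0.0663% to 0.0721% of counts in the Cre-negative libraries to 0.00417% to 0.00494% in the others, with none at 0. Lyz2, the highest of them, was at 205 ± 7.996 against 25.7 ± 2.35 CPM (SD, n = 3 each). Their part in the levels of the exporters was not tested.

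**Figure D5:**
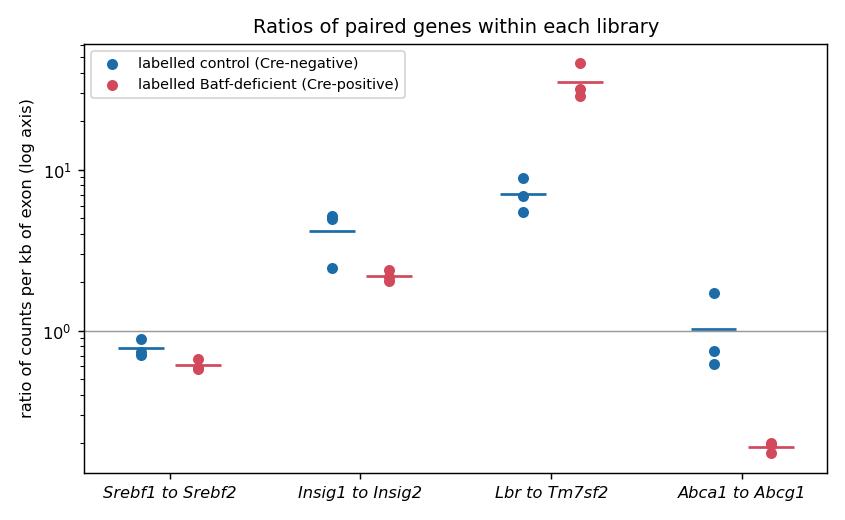
Ratio of counts per kb of exon for 4 pairs of related genes within each library (log axis), with a point per library and a bar at the mean of 3. Lbr to Tm7sf2 ran from 5.46 to 8.86 in the Cre-negative and from 28.6 to 45.9 in the Cre-positive libraries, and Abca1 to Abcg1 from 0.620 to 1.72 and from 0.172 to 0.199.

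Levels of different genes were compared in CPM per kb of exon. In the Cre-negative libraries the order began with Ebp (29.8), Fdps (29.2) and Pmvk (29.1), which lay close together, followed by Stard4 (20.2) and Lbr (18.95). In the Cre-positive libraries it began with Lbr (24.6) and Idi1 (24.6), followed by Srebf2 (20.7), Stard4 (19.99) and Cyp51 (17.8), while Pmvk was at 4.64 and Fdps at 10.8. As a share of the counts on the 29 genes, which no scaling alters, 9 genes were higher and 16 lower without overlap between groups, and 4 overlapped. These are the same splits as with TMM, since the summed CPM of the set was 1399 ± 21.2 in the Cre-negative and 1264 ± 34.96 in the Cre-positive libraries (SD, n = 3 each). Such shares have a fixed sum, so some must rise when others fall. A higher share is thus a level relative to the other members, and with lymphocyte scaling all 29 were lower. For CPM, 71.2% of all genes had groups without overlap.

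Other genes of sterol metabolism were read from lists of 95 genes, of which 90 were tested. Of these 23 rose with TMM scaling (against 30.2% of all genes), 47 fell (against 34.1%) and 20 did not pass (median -0.50). With lymphocyte scaling none was higher (against 2.13% of all genes) and 88 were lower (against 86.0%). The same shares over all genes belong beside the counts of each list that follows. Of 12 genes of SREBP cleavage and sterol-regulated degradation 5 rose with TMM scaling and 3 fell. The ubiquitin-conjugating enzyme Ube2g2 went from 42.7 ± 3.19 to 154 ± 1.58 CPM (log2 fold change 1.85, -0.50 with lymphocyte scaling) and the ligase Rnf139 from 15.3 ± 0.2999 to 54.8 ± 5.94 CPM (1.83 and -0.52). Erlin2, a membrane protein that binds SREBP and INSIG complexes, went from 51.7 ± 2.85 to 12.8 ± 2.46 CPM (-2.01). Of 15 genes that use isoprenoids 3 rose with TMM scaling and 7 fell, among them Pdss1, which builds the tail of coenzyme Q, from 21.5 ± 4.39 to 3.36 ± 0.665 CPM (-2.70). Values are means ± SD of 3 libraries, and each of these 4 genes passed, with edgeR adjusted p from 2.07e-08 to 3.17e-06.

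Fatty acid genes known as targets of SREBP1 moved in both directions. Of 14 tested 3 rose with TMM scaling and 8 fell (median -0.83). Elovl5, an elongase of polyunsaturated fatty acids, went from 81.5 ± 16.8 to 315 ± 37.0 CPM (log2 fold change 1.95, -0.40 with lymphocyte scaling), and Acly, which supplies cytosolic acetyl-CoA, from 62.9 ± 6.24 to 122 ± 6.05 CPM (0.96 and -1.39). Elovl6, an elongase of saturated fatty acids, went from 99.2 ± 4.43 to 13.8 ± 1.52 CPM (-2.84) and the desaturase Fads1 from 35.1 ± 0.906 to 4.34 ± 0.519 CPM (-3.00). All 4 passed the test, with edgeR adjusted p between 3.17e-09 and 1.32e-05.

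Among LXR receptors and targets 8 of 12 tested genes fell and 3 rose with TMM scaling (median -2.28). Apoe, the lipid carrier made by macrophages, went from 440 ± 62.3 to 26.9 ± 0.982 CPM (log2 fold change -4.03) and Lpcat3, a phospholipid-remodelling enzyme, from 177 ± 20.8 to 26.1 ± 2.33 CPM (-2.76). Pltp, the phospholipid transfer protein, went from 20.1 ± 1.90 to 82.5 ± 7.76 CPM (2.03, and -0.31 without a call when scaled on lymphocyte genes). The epithelial and macrophage markers given above moved in the same direction as the genes that fell, and their part was not tested.

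Storage and lysosomal genes held 5 that rose with TMM scaling and 11 that fell, of 20 (median -0.40). The acyltransferases that esterify cholesterol parted: Soat1, the widely expressed form, went from 19.6 ± 1.32 to 54.0 ± 1.31 CPM (log2 fold change 1.46, -0.89 with lymphocyte scaling), and Soat2, the form of intestine and liver, from 50.97 ± 5.60 to 12.8 ± 3.02 CPM (-2.00). Gramd1a, a carrier of plasma membrane cholesterol, went from 81.0 ± 10.6 to 185 ± 6.41 CPM (1.19 and -1.16). Of 6 tested oxysterol genes 5 fell and 1 rose. The gene that rose was Gpr183, the oxysterol receptor of lymphocytes, from 111 ± 17.2 to 642 ± 21.9 CPM (2.54, edgeR adjusted p = 3.96e-09; 0.19 and no call with lymphocyte scaling). Of 11 other lipoprotein receptors tested 3 rose with TMM scaling and 5 fell, among them Sorl1 from 87.3 ± 20.05 to 185 ± 14.1 CPM (1.08 and -1.27) and Lrp1 from 93.97 ± 7.26 to 6.70 ± 1.51 CPM (-3.78).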

How the data were processed

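Raw counts per gene symbol in 6 libraries are used as the authors deposited them, in a single table, and reads were placed on mm10, per the submitters' processing notes. How reads were aligned and counted, the annotation and the strandedness are not stated in the sources used here. Smart-seq2 has no molecular identifiers, so counts are reads. Groups come from the sample titles. In R 4.3.3 and edgeR 4.0.16, genes were kept by filterByExpr (minimum count 10), which left 15261 of 25075; libraries were scaled by TMM, and a robust quasi-likelihood model with group as its only term was tested two-sided at an adjusted p of 0.05 over all genes. The test was also run on counts simulated from the control libraries, with a small part of the genes changed in both directions. That simulation held no difference between groups as wide as the one here, so it does not check the scaling of these data. SE is the log2 fold change over the root of the F statistic. Coordinates and exon lengths (merged exons) are from GENCODE M21 on the same build, and promoters from RefSeq.

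The 29 genes, the other lists, the 22-gene lymphocyte panel and the tests were chosen with earlier results of these data known. Named genes were all 29, Batf, up to 3 of the lowest p in each direction per pathway list, and up to 3 of the highest CPM per marker list. Alternatives were library totals, the panel, DESeq2 1.42.0, limma voom 3.58.1, 2 filters, a replicate block, averaging Cre-positive replicates 1 and 2, and leaving out each library. The depth allows 3 counts to stand for 0.155 to 0.425 CPM. Reads of overlapping genes, which 10 of the 29 have, and of near-identical copies may be misassigned.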

Additional observations from a re-analysis of the deposited data

How the results depend on the processing

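Library scaling moved the counts most. With library totals 3052 genes were higher, and 5 cholesterol genes were higher, all 5 of them also higher with TMM. All 16 that were lower with TMM stayed lower, and Sqle (-0.49) and Stard4 (-0.40), without a call with TMM, were called lower too. With the lymphocyte panel 325 genes were higher and 13120 lower, 0 of the 29 cholesterol genes were higher and 29 lower, and 0 of the other sterol genes were higher and 88 lower (edgeR; at an unadjusted p under 0.05 none of either set was higher, and no other tool was run with this scaling). Panel scaling reversed Idi1 (-1.15), Ggps1 (-1.06), Cyp51 (-1.99), Lbr (-1.96), Msmo1 (-1.82), Srebf1 (-1.82), Srebf2 (-1.46), Insig2 (-2.16), Mylip (-1.08) and Abcg1 (-0.96). Library totals reversed Cyp51 (-0.012), Lbr (-0.00068) and Insig2 (-0.18), each without a call, and ended the calls of Msmo1 (0.15, edgeR adjusted p = 0.388) and Srebf1 (0.15, edgeR adjusted p = 0.361). Leaving out a library gave 6 to 9 higher and 15 to 16 lower cholesterol genes, and signs turned only for genes without a call: Mvd (-0.29 to 0.11), Insig2 (-0.0083 to 0.40) and Stard4 (-0.13 to 0.091). Stard4 also turned with the filter on mean CPM (0.0081). DESeq2 and limma voom gave 9 higher and 16 lower. Such counts need the background beside them. In the main fit 31.0% of the members were higher, near the 30.2% of all genes, and 55.2% were lower, against 34.1%. With the replicate block 9 were higher and 16 lower, and 4603 and 5091 over all genes. The replicate numbers are not stated to pair the samples, and deviations of same-numbered samples had correlations of 0.0045, 0.021 and 0.030, and not every sample correlated best with its own number. Averaging Cre-positive replicates 1 and 2 left 6 higher and 16 lower; Cyp51, Lbr and Msmo1 lost their calls (edgeR adjusted p = 0.129, 0.100 and 0.0509). Apart from both scalings, 22 of the 29 genes kept direction and call under all alternatives run. Tm7sf2, with 18 to 49 counts in the Cre-positive libraries, had the least depth.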
